A study of Mus musculus with 6 samples.

Results

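The genes described here encode mitochondrial ribosomal proteins. They were taken as every row of the deposited count table whose symbol begins with Mrpl or Mrps and a number, which gave 84 of 52249 rows, of which 78 are protein-coding genes and 6 are annotated processed pseudogenes. Counts came from 3′ mRNA sequencing of mouse intestinal organoids, epithelial cultures grown from the gut, in 2 groups of 3 libraries. The control group is labelled as an Apc knockout, Apc being a tumour suppressor that holds WNT signalling in check. The other group carries the same knockout together with overexpression of IGF2BP3, an RNA-binding protein, and is called OE-labelled below. By its title and design text, the series concerns IGF2BP3 and MYC in adenoma cell growth and used organoids from Apc-knockout mice. How IGF2BP3 was overexpressed, how many animals or lines were used, their age, and whether replicates were separate cultures are not given in the sources used here, so p-values measure only the spread between these libraries, which may be technical.

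Mitochondrial ribosomes translate the few proteins encoded by mitochondrial DNA, all of them core subunits of the respiratory chain or of ATP synthase. Their ribosomal RNAs are transcribed inside the organelle, whereas every one of their proteins is encoded in the nucleus, made in the cytosol and imported. Part of the proteins have bacterial homologues and part are specific to mitochondria. MYC is known to drive genes of mitochondrial biogenesis, and intestinal crypt cells are known to depend on mitochondrial activity.

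Library totals ran from 2180116 to 2519917 counts, and 3 counts, taken as the floor, were worth 1.18 to 1.41 CPM (counts relative to the library size, here scaled by TMM, the trimmed mean of M-values). Igf2bp3 had at most 1 count in any library, which gives no check of the label, and Apc, counted 148 to 182 times, does not separate mutated from other transcripts. Epithelial markers were present, with a summed level of 4168 to 4408 CPM in control and 5433 to 6153 CPM in OE-labelled libraries, although Krt20 and Cdx1 were at 0 in all 6. Of 10 stromal markers 6 were at 0 and the sum did not exceed 3.284 CPM. Of 9 immune markers 5 were at 0, and the sum of the list (41.28 to 51.62 CPM in control, 60.88 to 75.76 CPM in OE-labelled libraries) came nearly all from Csf1r and Cd68. Of 4 nerve and glia markers 2 (Sox10 and Elavl4) were at 0, and the sum of 49.3 to 53.46 CPM in control and 99.78 to 118.4 CPM in OE-labelled libraries came nearly all from S100b (log2 fold change 1.14, edgeR adjusted p = 0.000129). Endothelial markers summed to 8.296 to 12.44 CPM against 12.19 to 13.37 CPM, mostly Esam, and muscle markers to at most 0.9217 CPM. The part of these marker differences in the results was not tested. In bulk samples, fewer cells of a type and less RNA per cell cannot be told apart. Library names follow one numbering for control and a different one for OE-labelled samples, and an effect of that numbering cannot be told apart from the group.

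Most mitochondrial ribosomal protein genes were counted somewhat more often in OE-labelled libraries. Of the 84 members, 76 passed the count filter of edgeR, and 24 of these were higher and 6 lower at an adjusted p below 0.05 (edgeR quasi-likelihood test, Benjamini-Hochberg adjustment over 10687 genes). Among all genes tested, 29.2% were called, 16.5% higher and 12.7% lower, against 31.6% and 7.89% of the members. The median log2 fold change of the members was 0.28, with the middle range of the values from 0.02 to 0.44, beside 0.04 over all tested genes. A fold change above 0 was found for 58 of the 76 members (76.3%), compared with 53% of all tested genes. All CPM values of one group lay beyond those of the other for 31 members that were higher and 9 that were lower in OE-labelled libraries, where the shares over all tested genes were 25.3% and 20.5%. Of 47 tested members with a bacterial homologue 15 were higher and 3 lower (median 0.27), and of 29 specific to mitochondria 9 and 3 (median 0.30). Single members ranged from a log2 fold change of -1.82 (Mrps18b) to 1.02 (Mrpl54).

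**Figure D1:**
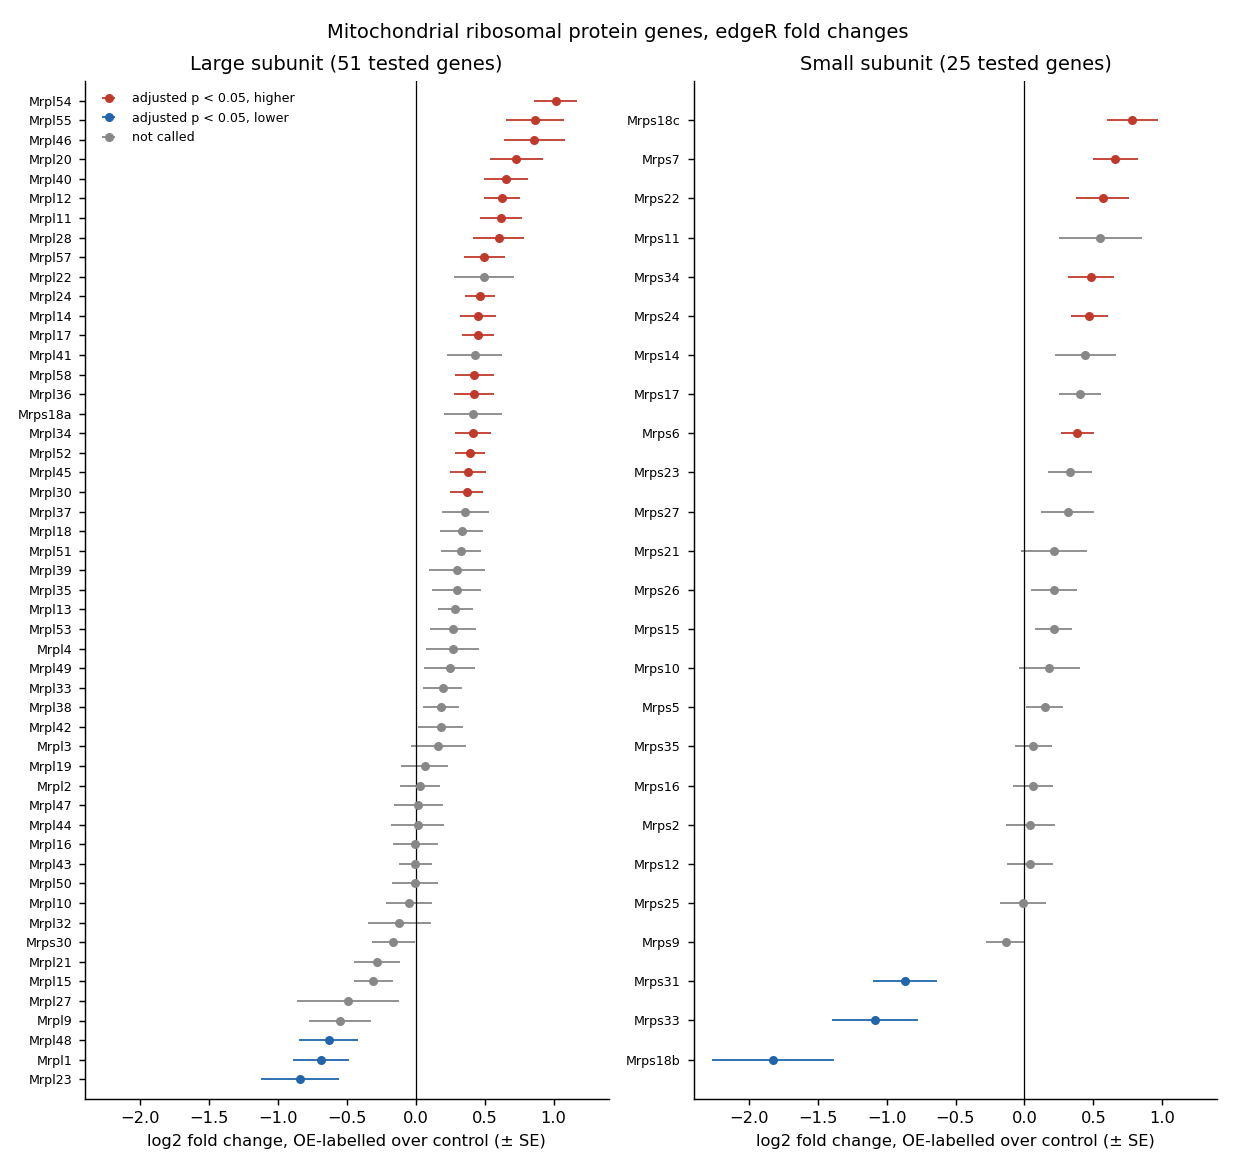
Log2 fold change of each tested member (x axis, OE-labelled over control, points with standard error from edgeR), in the large subunit (51 genes) and the small subunit (25 genes), ordered by value. Red points passed the threshold upward (24), blue points downward (6) and grey points not at all (46).

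The number of calls depended on the test and on single libraries, whereas the median moved less. DESeq2 called 8 members higher and 1 lower (10.5% and 1.32%), and its shares over all genes were 9.91% and 9.7%, so that by this test the upward share of the members was near the background. Leaving out control replicate 1, 2 or 3 left 9, 8 and 8 members higher (11.7%, 10.5% and 10.4%), beside 10%, 9.84% and 9.42% of all genes. These upward shares were also near the background. The same fits left 1, 1 and 2 members lower (1.3%, 1.32% and 2.6%), beside 7.27%, 6.91% and 6.52% of all genes. Without OE-labelled replicate 2, 10 members were higher (13%) and 3 lower (3.9%), beside 11.3% and 9.86% of all genes. Here too the upward share was near the background. Without OE-labelled replicate 1, 16 members were higher (20.8%) and 5 lower (6.49%), beside 14.8% and 15.9% of all genes. Without OE-labelled replicate 3, 23 were higher (30.3%) and 5 lower (6.58%), beside 18.1% and 14.5% of all genes. At an adjusted p below 0.01 edgeR called 8 members higher (10.5%) and 1 lower (1.32%), beside 8.83% and 5.93% of all genes. At that threshold the upward share was likewise near the background. Without a count filter 16 members were higher (19.5%) and 6 lower (7.32%), beside 8.58% and 8.73% of all genes. With DESeq2 size factors in edgeR these numbers were also 16 (21.1%) and 6 (7.89%), beside 14.4% of all genes in each direction. In the 6 fits that each left out a library, the median of the members stayed between 0.21 and 0.29. Of the 30 called members, 5 kept the call in all 6 of those fits: Mrpl12, Mrpl54, Mrpl55 and Mrps18c among the higher and Mrps18b among the lower. DESeq2 called the first 4 and missed Mrps18b (adjusted p = 0.0505).

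Counted per library against the highest control value, 44, 51 and 46 of the 76 members lay above it in OE-labelled replicates 1, 2 and 3. The spread between libraries was larger in the OE-labelled group for 49 of the 76 members, with a median coefficient of variation of 13.1% against 9.54% in control. The counting noise calculated from the mean counts over all 6 libraries was about 11.2%. It is not a coefficient measured on 3 libraries, so it cannot show whether either group varied more or less than counting alone. Neither count of members was made over all tested genes, so neither can be read as particular to the members.

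The stalk of the large subunit is the flexible arm that recruits translation factors, and 3 of its 5 genes were called higher, where 16.5% of all tested genes were. Mrpl54 (ENSMUSG00000034932, minus strand of chromosome 10, 81264713 to 81266934 in GRCm38), a mitochondrion-specific protein near the stalk base, was counted at 43.3, 46.9 and 30.9 CPM in control and 76.6, 83.0 and 85.8 CPM in OE-labelled libraries. Every OE-labelled value lay above every control value, and the log2 fold change came to 1.02 (edgeR adjusted p = 0.000664, SE 0.16). Mrpl12 (plus strand of chromosome 11, 120484613 to 120489065), the stalk protein that also binds the mitochondrial RNA polymerase, had 91.7, 82.6 and 77.4 CPM in control and 147, 127 and 114 CPM in OE-labelled libraries. The groups were apart, with a log2 fold change of 0.63 (edgeR adjusted p = 0.00376, SE 0.13). Mrpl11, part of the stalk base where GTPase factors dock, had 38.7, 30.02 and 32.3 CPM against 52.7, 53.9 and 48.6 CPM. Its log2 fold change was 0.62 (edgeR adjusted p = 0.0084, SE 0.15), a call lost without control replicate 2 (edgeR adjusted p = 0.0552). Mrpl10, the anchor that carries the Mrpl12 copies, showed no such separation, with 33.2, 29.1 and 33.2 CPM against 26.3, 32.2 and 33.8 CPM and a log2 fold change of -0.05 (edgeR adjusted p = 0.855, SE 0.17). None of the 5 was called lower in edgeR, and Mrpl53 had a log2 fold change of 0.27 (edgeR adjusted p = 0.244) with groups that did not overlap.

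**Figure D2:**
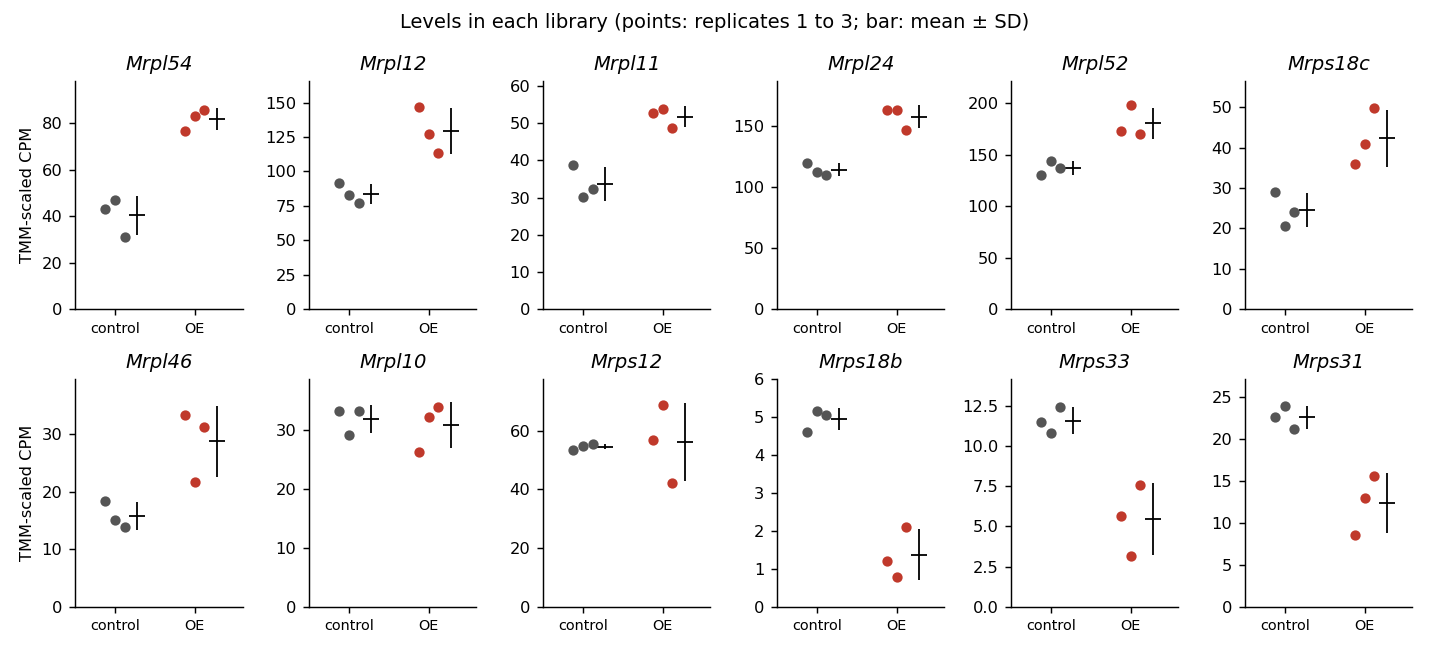
TMM-scaled CPM (y axis, from 0) of 12 members in each library, as points for replicates 1 to 3 of the control (grey) and OE-labelled (red) groups, with the mean and SD beside them. The groups are apart upward from Mrpl54 to Mrpl46, overlap for Mrpl10 and Mrps12, and are apart downward for Mrps18b, Mrps33 and Mrps31.

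At the polypeptide exit, where new membrane proteins leave the ribosome, 3 of 6 genes were called higher and 1 lower (16.5% and 12.7% of all tested genes), the downward share being near that of all genes. Mrpl24, among the 5 members with the highest CPM, had 120, 113 and 110 CPM in control and 163, 163 and 147 CPM in OE-labelled libraries. The ranges were apart and the log2 fold change came to 0.47 (edgeR adjusted p = 0.00717, SE 0.11), with the call lost by a small margin without control replicate 3 (edgeR adjusted p = 0.0524). Mrpl17 rose by 0.45 (edgeR adjusted p = 0.0127, SE 0.12), a call lost without control replicates 2 or 3. Mrpl45, the protein that ties the exit to the inner membrane, rose by 0.38 (edgeR adjusted p = 0.0413, SE 0.13), but the call was lost in each of the 6 fits that left out a library. Mrpl22, whose extended loop lines the tunnel, had 13.4, 12.7 and 13.4 CPM against 19.04, 21.2 and 15.2 CPM. Its groups did not overlap, yet at 27 to 54 counts per library the log2 fold change of 0.50 (SE 0.22) did not pass (edgeR adjusted p = 0.101). Mrpl47 gave 0.02 (edgeR adjusted p = 0.95, SE 0.18), with a sign that changed between scalings.

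The central protuberance, which faces the small subunit, held 3 genes called higher and 1 called lower among 7, beside 16.5% and 12.7% of all tested genes, so that the downward share was again near the background. Mrpl55 (plus strand of chromosome 11, 59202486 to 59206134) had 12.4, 11.7 and 14.3 CPM in control and 21.9, 27.1 and 21.1 CPM in OE-labelled libraries. This 1.82-fold difference (log2 fold change 0.87, edgeR adjusted p = 0.00825, SE 0.21) held in every fit that left out a library. Mrpl46 had 18.4, 15.01 and 13.8 CPM against 33.2, 21.6 and 31.3 CPM, a log2 fold change of 0.86 (edgeR adjusted p = 0.0114, SE 0.22), lost without control replicates 2 or 3. It shares its start region with Mrps11 on the opposite strand of chromosome 7, whose log2 fold change was 0.55 (edgeR adjusted p = 0.187, SE 0.30). Mrpl40 rose by 0.66 (edgeR adjusted p = 0.00909, SE 0.16), lost without control replicate 1 (edgeR adjusted p = 0.0516). Mrpl48 went the other way, from 29.0, 34.2 and 37.3 CPM to 27.5, 22.02 and 15.2 CPM. OE-labelled replicate 1 lay only just under the lowest control value, and the log2 fold change of -0.63 (edgeR adjusted p = 0.0415, SE 0.21) was retained in 1 of the 6 fits without a library.

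Elsewhere in the large subunit, 9 further genes were called higher. Mrpl20 rose by 0.73 (edgeR adjusted p = 0.0126, SE 0.19), Mrpl28 by 0.60 (edgeR adjusted p = 0.0293, SE 0.19) and Mrpl57, a mitochondrion-specific protein, by 0.50 (edgeR adjusted p = 0.0253, SE 0.15). Mrpl52, the member with the highest CPM, had 130, 144 and 137 CPM in control and 173, 198 and 170 CPM in OE-labelled libraries. Its ranges were apart, and the log2 fold change of 0.40 (SE 0.11) passed in edgeR (adjusted p = 0.018) but not in DESeq2 (adjusted p = 0.067). Mrpl58, the peptidyl-tRNA hydrolase that rescues stalled ribosomes and is also a structural protein, rose by 0.43 (edgeR adjusted p = 0.0419, SE 0.14). Mrpl36 lay nearest the threshold on its inner side (log2 fold change 0.42, edgeR adjusted p = 0.0453), and Mrps17 of the small subunit nearest on its outer side (0.40, edgeR adjusted p = 0.0648). Mrpl14, Mrpl30 and Mrpl34 had log2 fold changes of 0.45, 0.37 and 0.42 and edgeR adjusted p of 0.0226, 0.0334 and 0.0326. Each of these 9 calls was lost when at least 1 control library was left out, and DESeq2 passed not one (adjusted p from 0.0528 to 0.235). Of the 6 fits that left out a library, Mrpl20 kept its call in 3 and Mrpl28, Mrpl52 and Mrpl57 in 2 each. Mrpl14, Mrpl30, Mrpl34 and Mrpl58 kept it in 1 each and Mrpl36 in 0.

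In the small subunit, 6 of 25 tested genes were called higher and 3 lower, and the median log2 fold change was 0.21, against 18 higher and 3 lower of 51 and a median of 0.30 in the large subunit. With 16.5% of all tested genes higher and 12.7% lower, the downward share of the small subunit (12%) was at the background and its upward share (24%) above it by less than that of the large subunit (35.3%). The difference between the subunits was not tested. Mrps18c (plus strand of chromosome 5, 100798627 to 100804471), a platform protein with a bacterial homologue, had 29.0, 20.6 and 23.96 CPM in control and 36.1, 40.9 and 49.9 CPM in OE-labelled libraries. Its groups were apart, with a log2 fold change of 0.78 (edgeR adjusted p = 0.00776, SE 0.18). Mrps7, a protein of the subunit head, had 24.4, 25.3 and 29.5 CPM against 46.2, 37.8 and 41.4 CPM. Again no values overlapped, and the log2 fold change came to 0.66 (edgeR adjusted p = 0.00896, SE 0.16), lost without control replicate 1 (edgeR adjusted p = 0.0509). The mitochondrion-specific Mrps22 and Mrps34 rose by 0.57 and 0.49 (edgeR adjusted p of 0.0431 and 0.045), and Mrps24 and Mrps6 by 0.47 and 0.38 (edgeR adjusted p of 0.0206 and 0.0314). Of the 6 fits that left out a library, Mrps22, Mrps24 and Mrps34 kept the call in 1 each and Mrps6 in 3. DESeq2 called not one of these 4 (adjusted p from 0.126 to 0.193). On the same strand Mrps34 overlaps Nme3, Mrps6 overlaps Slc5a3, Mrps24 overlaps Urgcp and Mrps18c overlaps Gm43511. Among these members only Mrps34 had fractional counts (116.5, 89.5 and 120.5 in control, 180.5 in OE-labelled replicate 2), so its reads may have been divided between genes. Counts of Mrps6, Mrps24 and Mrps18c were whole numbers, and how reads in overlaps were assigned is not given in the sources used here.

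Mrps18a, Mrps18b and Mrps18c are paralogues, of which Mrps18a sits in the large subunit and the others in the small one. Their values went different ways. Mrps18b (minus strand of chromosome 17, 35910379 to 35916389) had 4.61, 5.16 and 5.07 CPM in control and 1.22, 0.786 and 2.11 CPM in OE-labelled libraries. These values rest on 10, 11 and 11 counts against 3, 2 and 5 counts. The groups were apart and the log2 fold change came to -1.82 (edgeR adjusted p = 0.00895, SE 0.44), with DESeq2 just outside its threshold (adjusted p = 0.0505). At this depth part of the OE-labelled values lay at or under the floor of 3 counts. Mrps18a had a log2 fold change of 0.42 (edgeR adjusted p = 0.152, SE 0.21) with overlapping groups.

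The other members called lower came from several sites. Mrps33, specific to mitochondria, had 11.5, 10.8 and 12.4 CPM in control and 5.67, 3.15 and 7.61 CPM in OE-labelled libraries, a log2 fold change of -1.08 (edgeR adjusted p = 0.0208, SE 0.31). Mrps31, also specific to mitochondria, had 22.6, 23.9 and 21.2 CPM against 8.51, 12.98 and 15.6 CPM. It was the only lower member that DESeq2 called (log2 fold change -0.87, edgeR adjusted p = 0.0153, SE 0.23, DESeq2 adjusted p = 0.0257). Mrpl1, of the mobile arm beside the exit site for transfer RNA, had 21.2, 21.1 and 25.3 CPM against 12.96, 12.98 and 16.1 CPM, with a log2 fold change of -0.69 (edgeR adjusted p = 0.0231, SE 0.20). Mrpl23, at the polypeptide exit and beside the imprinted Igf2 and H19 genes, had 10.1, 11.3 and 7.83 CPM against 4.86, 5.51 and 5.92 CPM. All groups of these 4 genes were apart. The Mrpl23 call (log2 fold change -0.84, edgeR adjusted p = 0.0412, SE 0.28) was lost in each fit that left out a library. Those of Mrps33 and Mrpl1 were lost without any control library and without OE-labelled replicate 2, and that of Mrps31 without control replicates 1 or 2. With Mrps18b and Mrpl48, the lower members had mean levels from 3.16 to 27.6 CPM, a range that also held members called higher, such as Mrpl55 (18.1 CPM). Over the 76 tested members the log2 fold change rose with the mean CPM (Pearson 0.49 on a log scale, Spearman 0.22). The part of the level in these calls was not tested.

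A group of members stayed near a log2 fold change of 0. Mrps12, at the decoding centre, had 53.5, 54.9 and 55.3 CPM in control and 56.7, 68.8 and 42.3 CPM in OE-labelled libraries (0.04, edgeR adjusted p = 0.883, SE 0.17). Control libraries lay close together, whereas OE-labelled values fell on both sides of them. Mrpl44 gave 0.01 (SE 0.19), Mrpl32, which is matured by the m-AAA protease, -0.12 (SE 0.23), and Mrps30 -0.16 (SE 0.16), and the sign of each, Mrps12 included, changed under some scaling or GC setting. Mrpl27, whose log2 fold change was -0.49 (edgeR adjusted p = 0.341, SE 0.37), had 19.4, 25.8 and 29.9 CPM in control and 5.67, 22.02 and 25.8 CPM in OE-labelled libraries. OE-labelled replicate 1 alone lay far under the rest. Mrpl9 had non-overlapping groups and a log2 fold change of -0.55 (SE 0.22) that did not pass (edgeR adjusted p = 0.0831).

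Members outside the test were few and near the floor. Mrps28 was counted 4, 11 and 9 times in control and 0, 2 and 14 times in OE-labelled libraries. Mrps36, named as a ribosomal protein but known as a component of the 2-oxoglutarate dehydrogenase complex, was counted 2, 3 and 9 times against 2, 8 and 9 times. Their groups overlapped. The 6 pseudogenes had at most 4 counts in any library.

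Reads of a member could also be shared with other annotated genes. Of the 76 tested members, 44 overlapped another gene on either strand or had a near-identical copy, defined as 95% identity over at least 250 of the last 500 bases. In these 15 were called higher and 2 lower (34.1% and 4.55%, median log2 fold change 0.30). Among the 32 without either, 9 were higher and 4 lower (28.1% and 12.5%, median 0.24). Of all tested genes 16.5% were higher and 12.7% lower, so the downward share of the 32 was at the background. Among tested members, copies were found for Mrpl22, Mrpl41 and Mrps21 only, and values of such genes are uncertain because the counting of shared reads is not given.

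Summed over members, both subunits had higher levels in OE-labelled libraries. The 51 large subunit genes added up to 2182, 2186 and 2125 CPM in control and 2637, 2693 and 2560 CPM in OE-labelled libraries, a ratio of 1.22 between the means. The 27 genes counted as small subunit added up to 871.1, 862.7 and 892.4 CPM against 1023, 1052 and 1007 CPM, a ratio of 1.17. They include Mrps36, which had at most 4.15 CPM in any library. Every OE-labelled sum lay above every control sum. The large to small ratio was 2.5, 2.53 and 2.38 in control and 2.58, 2.56 and 2.54 in OE-labelled libraries. These sums were not tested, since the members were chosen with results known.

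Counts of the 2 ribosomal RNAs of the same particle went the other way. The libraries were primed on poly(A) tails, so these counts need not follow the amount of ribosomal RNA. mt-Rnr1, the small subunit RNA, had 34370, 33890 and 35470 CPM in control and 18080, 14320 and 12840 CPM in OE-labelled libraries (log2 fold change -1.20, edgeR adjusted p = 4.15e-05, SE 0.11). mt-Rnr2, the large subunit RNA, had 57320, 58030 and 60670 CPM against 25640, 24220 and 25220 CPM (log2 fold change -1.23, edgeR adjusted p = 4.68e-06, SE 0.08). No values overlapped. With mitochondrial genes and the transcript CT010467.1 left out of the fit, 16 members were higher and 6 lower (14% and 15.2% of all genes) and the median log2 fold change of the members was 0.22.

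**Figure D3:**
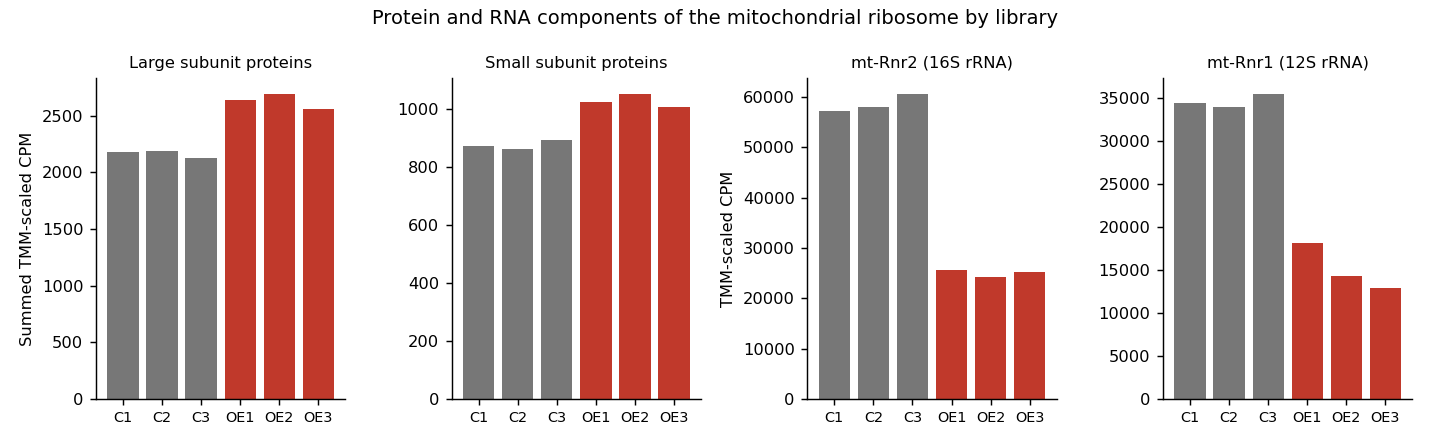
Summed TMM-scaled CPM of large and small subunit proteins, and TMM-scaled CPM of mt-Rnr2 and mt-Rnr1 (y axes, each from 0), with 1 bar for each control (grey, C) and OE-labelled (red, OE) library. The small subunit sum includes Mrps36. The sums over protein genes are higher in every OE-labelled library, and the CPM values of both ribosomal RNAs are lower in every one.

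Of the 5 mitoribosomal proteins whose symbols do not follow the Mrpl or Mrps pattern, 2 rose and 1 fell. Gadd45gip1 went from 52.1 ± 2.80 to 79.7 ± 10.3 CPM (SD, n = 3 a group; log2 fold change 0.61, edgeR adjusted p = 0.00537). Aurkaip1 had 49.3, 54.4 and 47.9 CPM against 79.8, 76.7 and 74.4 CPM (0.61, edgeR adjusted p = 0.00347). Ptcd3, a pentatricopeptide repeat protein of the small subunit, had 15.2, 16.4 and 21.2 CPM against 4.05, 6.69 and 8.88 CPM (-1.43, edgeR adjusted p = 0.00328, SE 0.29). All 3 had groups apart and kept their calls in every fit that left out a library. Dap3 and Chchd1 gave 0.03 and -0.05 and did not pass (edgeR adjusted p of 0.864 and 0.798).

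Lists of factors that build or serve the ribosome had shares of called genes at or under those of all tested genes (16.5% higher and 12.7% lower). Of 28 tested assembly and RNA-modification factors 3 were higher (10.7%) and 2 lower (7.14%), with a median of 0.15 on the log2 scale. Mpv17l2, an inner-membrane assembly factor, rose by 0.78 (edgeR adjusted p = 0.00562), while the GTPase Gtpbp10 changed by -1.57 (edgeR adjusted p = 0.0172) on 18 counts or fewer a library. Of 18 translation factors 2 were higher and 2 lower (11.1% each, median -0.03). Oxa1l, the inner-membrane insertase that Mrpl45 and other exit proteins face, rose by 0.50 (edgeR adjusted p = 0.00993), and the initiation factor Mtif2 changed by -0.59 (edgeR adjusted p = 0.0167). Of 18 mitochondrial tRNA synthetases only Hars2 was called (5.56%; log2 fold change 0.70, edgeR adjusted p = 0.0227). The calls of Gtpbp10, Oxa1l, Mtif2 and Hars2 were each lost without at least 1 control library.

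Among regulators of mitochondrial transcription and biogenesis, 2 of 14 were higher and 2 lower (14.3% each), near the 16.5% and 12.7% of all tested genes, and the median was -0.33. Polrmt, the mitochondrial RNA polymerase that Mrpl12 binds, rose by 0.86 (edgeR adjusted p = 0.0214, SE 0.25), and Ppargc1a, the coactivator of mitochondrial biogenesis, by 0.84 (edgeR adjusted p = 0.0295). Gabpb2, a subunit of the ETS factor GABP, changed by -0.62 (edgeR adjusted p = 0.0109). Myc had 21.2, 31.4 and 24.9 CPM in control and 3.24, 13.8 and 19.03 CPM in OE-labelled libraries. Its log2 fold change of -1.11 (edgeR adjusted p = 0.0472, SE 0.39) was lost without any control library or OE-labelled replicate 2. Of these 4 genes only Gabpb2 passed in DESeq2 (adjusted p = 0.0218). In fits leaving out a library, calls were kept in 1 of 6 for Ppargc1a, 2 for Myc, 3 for Polrmt and 5 for Gabpb2.

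Other large protein complexes were set beside the members. Of 83 tested cytosolic ribosomal protein genes, 37 were called higher (44.6%) and 4 lower; 77.1% had a log2 fold change above 0, and the median was 0.27. Nuclear-encoded respiratory chain subunits had 44 of 79 higher (55.7%) and 1 lower, with a median of 0.42 and 87.3% above 0. The members had a median of 0.28, close to that of the cytosolic ribosomal genes, and a share called higher of 31.6%, which was under that of either list. They were counted less, summing to 3017 to 3053 CPM in control, beside 85690 to 87550 CPM (cytosolic ribosomal) and 11900 to 12270 CPM (respiratory chain). A share called also depends on how deeply genes are counted, and that part was not tested. These comparisons share all libraries, and the differences between lists were not tested.

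**Figure D4:**
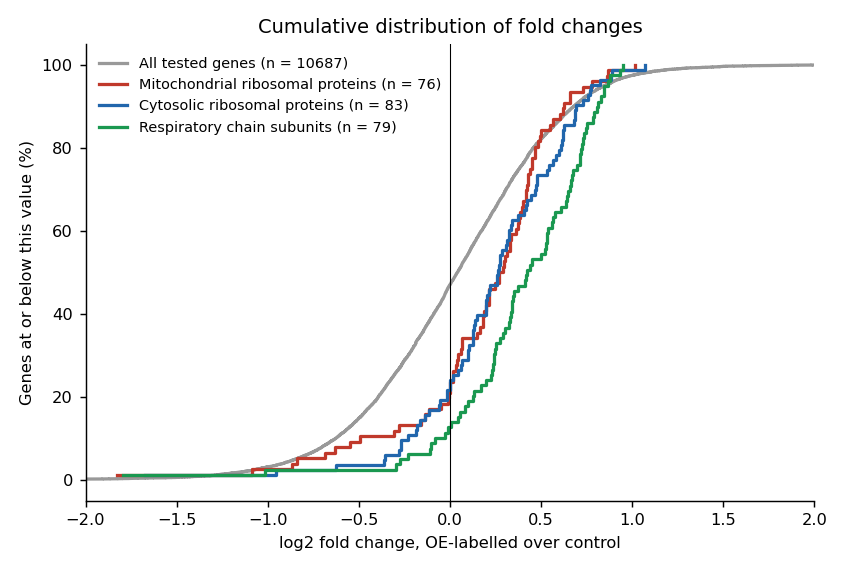
Share of genes in percent at or below a value (y axis) by log2 fold change (x axis, OE-labelled over control, drawn from -2 to 2) for all tested genes, the 76 members, 83 cytosolic ribosomal protein genes and 79 respiratory chain genes. Around their medians of 0.28, 0.27 and 0.42 the lists lie to the right of all genes, whose median is 0.04.

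GC content of the transcript moved with the fold change over all genes, and with that of the members. Over 10679 genes Spearman's rho was 0.37, and over the 76 members it was 0.34 (Pearson 0.28); these are correlations across genes in the same libraries, and genes are not independent replicates. Members above their median GC content had 16 of 38 called higher and a median of 0.37, against 8 of 38 and 0.18 in the others. Median GC content was 49.8% for members and 49.7% for all tested genes. Among genes within the middle GC range of the members, 11 of 38 members were higher and 2 lower (median 0.27), beside 14.3% higher and 12.6% lower of all 4438 genes there (median 0.02). With a GC term in the fit, 16 members were higher and 4 lower (12.7% and 10.2% of all genes), 12 of the 16 being among the 24. The part of GC content in the result was not tested beyond this fit.

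**Figure D5:**
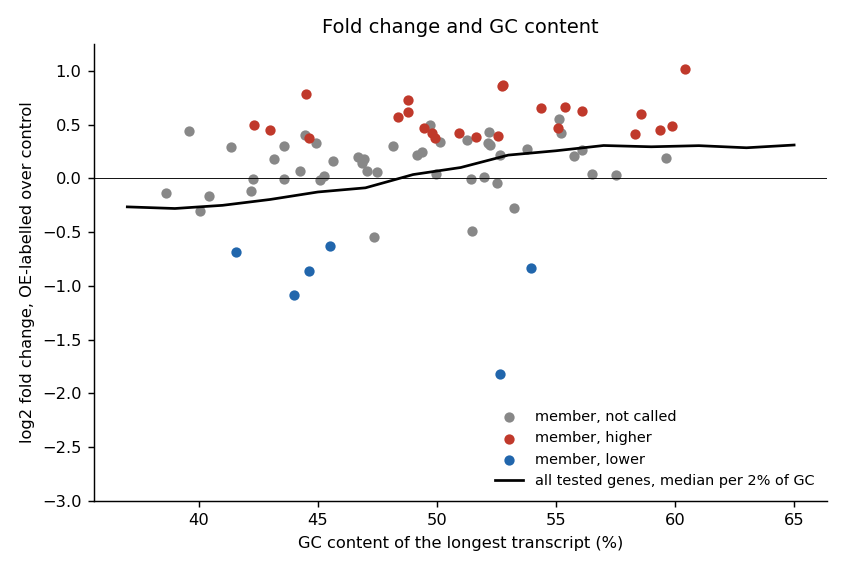
Log2 fold change (y axis) against GC content of the longest transcript in percent (x axis) for the 76 members, red where called higher, blue where called lower and grey otherwise, with a black line for the median of all tested genes in each 2% of GC content. Higher GC content goes with higher values among members and all genes (rho of 0.34 and 0.37).

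Promoters of mitochondrial ribosomal protein genes are known for sites of the ETS factor GABP and of NRF1. RefSeq windows of 300 bases (GRCm38.p6, 250 before to 50 after the start) were found for 69 of the 78 genes. The ETS motif CCGGAAG was present on either strand in 26 of 69 member genes (37.7%), beside 22.2% of tested genes and 9.93% of all genes. The consensus NRF1 motif, a palindrome of 10 bases, was present in 3 of 69 (4.35%), beside 2.5% of tested genes and 1.07% of all, and the searched motifs did not occur together in any member window. The ETS motif was found in 7 of 22 members called higher, 3 of 6 called lower and 16 of 40 not called. A gene counted if any of its windows held the motif, and by window these were 7 of 22, 3 of 9 and 16 of 43. Mrpl48 also has windows at other annotated starts, and those do not hold it. The following 120 bases, each on the strand of its gene and reading towards an annotated start, show the motif in capitals, as CCGGAAG or its reverse complement CTTCCGG, for 3 members called higher (Mrpl34, Mrpl52 and Mrps22) and 1 called lower (Mrpl48). They lie at chr8:71464806-71464925, chr14:54426789-54426908, chr9:98601680-98601799 and chr7:100583131-100583250 in this order, the first 2 on the plus and the others on the minus strand.
Mrpl34: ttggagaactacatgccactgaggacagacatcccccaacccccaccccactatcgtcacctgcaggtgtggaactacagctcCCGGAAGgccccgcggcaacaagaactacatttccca
Mrpl52: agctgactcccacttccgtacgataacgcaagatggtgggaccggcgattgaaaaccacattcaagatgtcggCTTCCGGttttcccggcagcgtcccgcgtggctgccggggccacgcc
Mrps22: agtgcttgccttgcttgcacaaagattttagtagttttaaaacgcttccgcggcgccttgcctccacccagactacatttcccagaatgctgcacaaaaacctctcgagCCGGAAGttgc
Mrpl48: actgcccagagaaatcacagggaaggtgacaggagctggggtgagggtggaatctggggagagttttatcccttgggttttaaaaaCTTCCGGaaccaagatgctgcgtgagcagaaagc
Such a match describes letters in a window and is not a measured binding site.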

How the data were processed

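Poly(A)-primed 3′ libraries (QuantSeq forward kit, 500 ng total RNA, per the labels' protocols) were sequenced from 6 organoid samples, grouped by sample title. The authors deposited estimated counts per gene, not normalized, with 3.1% of the values above 0 fractional. STAR, HTSeq and the mm10 (GRCm38) build are named in the submitters' processing notes; strand setting, molecular identifiers and annotation are not given in the sources used here. Every column of values was mapped to a sample by its library name.

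Counts were rounded and fitted with edgeR 4.0.16 in R 4.3.3 (filterByExpr, TMM, quasi-likelihood F test, no covariates, Benjamini-Hochberg adjustment over 10687 genes, threshold 0.05). The plan had assumed whole numbers. Standard errors are the log2 fold change divided by the square root of F. DESeq2 1.42.0, limma 3.58.1 and other scalings, filters, GC and depth settings were alternatives, and the fit was tested on simulated data. Of the gene identifiers, 99.5% matched GENCODE M21 (GRCm38), the source of positions and GC content. The floor covers counting error only. The standard errors, taken from the quasi-likelihood fit, also include the spread between these libraries, which may be technical.

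Members and lists were chosen with earlier results of these data known. Named members were up to 15 called in each direction by size of change, the 5 with the highest CPM, members with a role of their own, and those nearest the threshold. The remaining called members and Mrpl9, Mrpl27, Mrpl53, Mrps11, Mrps28, Mrps36, Mrpl41 and Mrps21 were added after their values were seen, as were Dap3, Chchd1 and the choice of promoters shown.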

Additional observations from a re-analysis of the deposited data

How the results depend on the processing

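The upward median of the members kept its direction in every alternative run, but the number of calls did not keep its size. More members were called higher than lower in each run, though over all genes 47.9% to 63.8% of calls were higher too. By DESeq2, at an adjusted p below 0.01, and without single control libraries or OE-labelled replicate 2, members called higher made up 10.4% to 13%. Over all genes the same runs gave 8.83% to 11.3%, so these upward shares were near the background. DESeq2 called 8 members higher and 1 lower (9.91% and 9.7% of all genes). An adjusted p below 0.01 in edgeR gave 8 and 1 (8.83% and 5.93% of all genes), with 1578 genes called in all. Without mitochondrial genes and CT010467.1 the median of the members was 0.22. Leaving out 1 library at a time gave 1748 to 3532 called genes, 8 to 23 members higher, 1 to 5 lower and a median of 0.208 to 0.289. In those fits 9.42% to 18.1% of all genes were called higher and 6.52% to 15.9% lower. A block for the replicate number gave 20 members higher and 5 lower (16.2% and 12.9% of all genes), the median was 0.275 and 3112 genes were called. The numbers were not shown to pair the libraries, since same-numbered libraries correlated at 0.096, 0.018 and 0.067 in their deviations from the group means, and control replicate 2 correlated better with OE-labelled replicate 3 (0.042) than with its own number. The block with a GC offset gave 16 and 5 (13.7% and 11.7% of all genes). Of 41 members followed singly over 860 values, 30 values changed sign, all in genes near 0 whose adjusted p did not pass. Mrpl44 became -0.0289 under DESeq2 size factors and the DESeq2 test, -0.0206 without a filter, -0.0437 without mitochondrial genes, -0.0985 with the GC offset and -0.0955 with block and GC offset (-0.0943 to 0.15 without single libraries). Mrpl47 became -0.0247, -0.0244, -0.0156 and -0.041 under size factors, the DESeq2 test, no filter and no mitochondrial genes (-0.104 to 0.0929 without single libraries). Mrps12 became -0.00338 and -0.00421 under size factors and the DESeq2 test, -0.0111 at equal depth, -0.0191 without mitochondrial genes, -0.184 with the GC offset and -0.202 with block and GC offset (-0.164 to 0.207 without single libraries). Mrpl10 became 0.00146 with library totals. Mrpl32 became 0.0849 and 0.0857, and Mrps30 0.0783 and 0.0742, with the GC offset and with block and GC offset (Mrpl32 -0.329 to 0.0565 without single libraries). The cause of these changes was not tested. At 0 to 14 counts a library, members such as Mrps18b and Mrps28 are limited by depth.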
